A study of Mus musculus with 22 samples.

Results

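The genes described here are 9 markers of cortical excitatory (glutamatergic) neurons and of the cortical layers: Slc17a7, Slc17a6, Tbr1, Neurod6, Cux2, Rorb, Fezf2, Bcl11b and Foxp2. They were chosen by symbol, as the rows of the deposited count table whose Ensembl gene ID maps to these names, and they are 9 of the 39056 genes in the table. All 9 passed the filter on low counts (at least 500 counts in total and a count in at least 3 libraries), which left 14072 genes to test. RNA was taken from the prefrontal cortex (PFC) of 11 male transgenic mice of 8 to 12 weeks on a C57BL/6J background. Every mouse, Control mice included, came from the cross of a tetO-EGFP/Rpl10a line with a CaMKIIα-tTA line, so that the CaMKIIα promoter drives the transactivator and, through it, the tagged ribosomal protein EGFP-Rpl10a. In translating ribosome affinity purification (TRAP), antibodies to EGFP pull down tagged ribosomes with the RNA bound to them, and the total-RNA (INPUT) library of a mouse was made from its homogenate without that step. Control mice (n = 3) received normal saline i.p. with 2 injections per day for 4 days, and EtOH mice (n = 4) received ethanol on the same schedule to a daily 2 g/kg. EtOH + ABT-888 mice (n = 4) received the same ethanol and, on the last day, 25 mg/kg of ABT-888, an inhibitor of poly(ADP-ribose) polymerase. Each mouse gave 1 TRAP and 1 total-RNA library, which makes 22 libraries in 6 groups.

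Excitatory neurons of the cortex load glutamate into synaptic vesicles with vesicular glutamate transporters, and their identity is set by transcription factors that differ between the layers. Slc17a7 (VGLUT1) is the transporter of most cortical pyramidal cells, and Slc17a6 (VGLUT2) that of thalamic and other subcortical glutamatergic neurons and of a smaller set of cortical cells. Tbr1 and Neurod6 are transcription factors of post-mitotic pyramidal neurons, Cux2 and Rorb mark the upper layers, and Fezf2, Bcl11b (Ctip2) and Foxp2 mark the deep layers. Bcl11b and Foxp2 are also known to be expressed by the projection neurons of the striatum, which are GABAergic. The CaMKIIα promoter is used to direct transgenes to forebrain excitatory neurons, and it is also known to be active in striatal projection neurons.

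Positions are those of mm10 in GENCODE release 21, and the counts cover the exons of each gene. Slc17a7 lies at chr7:45163949-45176142 on the plus strand, and Slc17a6 on the same chromosome and strand at chr7:51622006-51671119. Tbr1 lies at chr2:61802930-61814114 (plus), Neurod6 at chr6:55677822-55681263 (minus), Cux2 at chr5:121856366-122050102 (minus) and Rorb at chr19:18930605-19111196 (minus). Fezf2 lies at chr14:12342094-12348189 (minus), Bcl11b at chr12:107910403-108003602 (minus) and Foxp2 at chr6:14901349-15441977 (plus). No exon of these genes overlaps an exon of another gene, so their counts do not depend on how reads of overlapping genes were assigned.

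Sequences before the transcription start are shown for Neurod6, the marker that fell in both RNA pools after ethanol, and for Slc17a7, which defines the cortical excitatory class. Sequences are from RefSeq (GRCm38.p6), in a table in which 8 of the 9 markers were matched, with 11 starts in all; Foxp2 was not matched. The 250 bases before the start lie at chr6:55681264-55681513 (minus) for Neurod6 and at chr7:45163671-45163920 (plus) for Slc17a7, and both are written 5′ to 3′ on the strand of the gene. Capitals mark CANNTG, the E-box that basic helix-loop-helix factors such as Neurod6 itself recognise; it reads the same on both strands.
Neurod6: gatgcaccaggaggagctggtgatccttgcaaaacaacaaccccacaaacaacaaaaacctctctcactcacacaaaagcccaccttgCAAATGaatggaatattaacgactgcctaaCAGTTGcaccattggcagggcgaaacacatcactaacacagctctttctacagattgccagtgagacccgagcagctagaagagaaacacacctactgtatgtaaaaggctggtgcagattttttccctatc
Slc17a7: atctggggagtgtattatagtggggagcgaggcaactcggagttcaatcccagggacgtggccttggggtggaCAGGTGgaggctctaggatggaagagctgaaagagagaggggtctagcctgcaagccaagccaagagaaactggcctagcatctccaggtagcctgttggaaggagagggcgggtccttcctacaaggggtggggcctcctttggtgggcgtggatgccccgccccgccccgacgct
The Neurod6 stretch has 2 matches and the Slc17a7 stretch has 1, and 66.2% of all 32851 stretches of this length in the table hold at least 1, so the motif is common. TATAAA, searched on both strands, is in neither stretch and in 12.4% of all. A match describes the sequence and is not a measured binding site.

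The TRAP libraries held 6570957 to 22002618 counted reads each, and the total-RNA libraries 22132534 to 32421392. The markers were counted in all 22 libraries, with the fewest counts for Slc17a6 and Fezf2, which had as few as 26 counts each in a TRAP library, and the most for Slc17a7, with up to 28625 counts in a total-RNA library. Levels are given as normalized CPM, counts scaled to a common library size (CPM) after TMM adjustment of the library sizes. Groups were compared by the quasi-likelihood test of edgeR, p-values were adjusted over all 14072 genes by the Benjamini-Hochberg method, and a gene was called at an adjusted p under 0.05. The labels name the treatment and the RNA pool but no mouse. TRAP and total-RNA libraries were paired by their order of listing, in which the treatments follow the same sequence. Same-numbered libraries were taken as 1 mouse, so results within mice rest on an inferred pairing. Counting error is covered by these tests, but with 3 or 4 mice a group the spread between mice limits them.

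The first comparison asks how the markers are represented among the RNA bound to tagged ribosomes, relative to the total-RNA of the same tissue. In Control, 7 of the 9 markers were lower in TRAP than in total-RNA and the other two, Bcl11b and Foxp2, were higher, and all 9 differences passed the test. Of all genes tested, 30.4% were called lower and 29.5% higher in that comparison. In EtOH 6 were called lower and 2 higher (26.5% and 24.3% of all genes), and in EtOH + ABT-888 7 were called lower and 2 higher (21.5% and 19.5%). The median log2 fold change of the 9 markers was -1.13 in Control, -2.27 in EtOH and -2.20 in EtOH + ABT-888, beside 0.02, 0.03 and 0.05 over all genes tested. The direction did not differ between mice. The 7 markers were lower in TRAP than in the paired total-RNA library in 11 of 11 mice. Bcl11b and Foxp2 were higher in 11 of 11. Apart from Cux2 in EtOH, the TRAP and total-RNA values of a marker did not overlap within a treatment, so the pairing does not set these directions. The shares of all genes with 1 direction in every mouse, or without such overlap, were not computed.

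**Figure D1:**
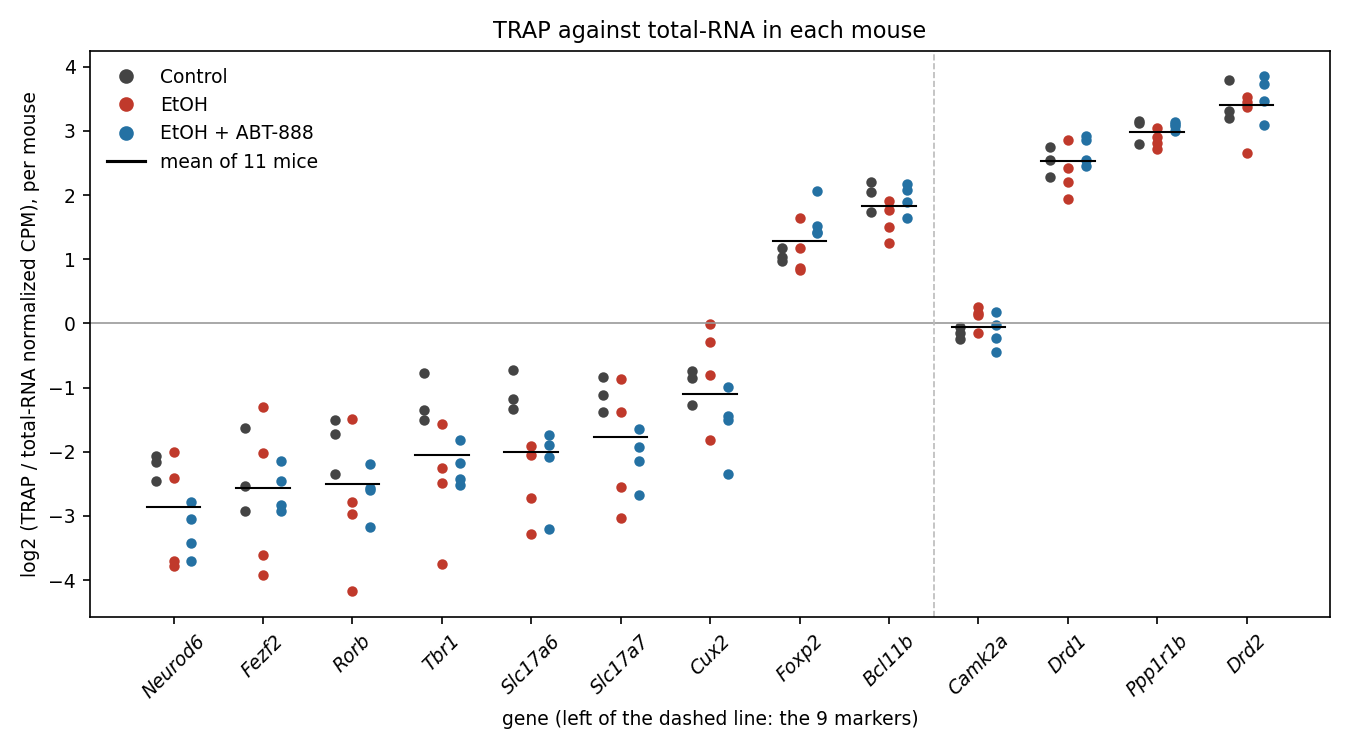
The log2 ratio of the TRAP to the total-RNA level (y axis, normalized CPM) is plotted for each of the 11 mice as a point coloured by treatment, with the mean of the 11 mice as a bar, for the 9 markers ordered by that mean, for Camk2a and for 3 striatal projection neuron genes (x axis). The markers run from Neurod6, with a mean of -2.87, to Bcl11b, with a mean of 1.83, Camk2a lies near 0, and Drd1, Ppp1r1b and Drd2 lie above Bcl11b in their means.

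The transporters were both lower in TRAP. Slc17a7 was at 352, 455 and 429 CPM in Control_TRAP (mice 1, 4 and 7) and at 921, 985 and 762 CPM in the total-RNA of the same mice. In EtOH (mice 2, 5, 8 and 9) it was at 307, 107, 150 and 394 CPM in TRAP and at 799, 878, 877 and 717 CPM in total-RNA. In EtOH + ABT-888 (mice 3, 6, 10 and 11) it was at 308, 164, 180 and 196 CPM in TRAP and at 967, 1046, 796 and 743 CPM in total-RNA. No TRAP library reached the lowest total-RNA library. The log2 fold change of Slc17a7 was -1.13 (SE 0.12, adjusted p = 1.36e-05) in Control, -1.79 (SE 0.33, adjusted p = 0.00095) in EtOH and -2.07 (SE 0.21, adjusted p = 2.95e-05) in EtOH + ABT-888. Slc17a6 averaged 11.8 ± 3.22 CPM (SD, n = 3) in TRAP and 25.0 ± 8.00 CPM in total-RNA of Control mice, a log2 fold change of -1.10 (SE 0.24, adjusted p = 0.0021), and fell by 2.34 and 2.22 on the log2 scale in EtOH and EtOH + ABT-888.

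Both pan-pyramidal transcription factors were lower in TRAP as well, Neurod6 by the larger margin. Neurod6 was at 21.3, 17.7 and 25.4 CPM in Control_TRAP against 95.7, 97.3 and 106.6 CPM in Control_total-RNA, 4.70-fold lower (log2 fold change -2.23, SE 0.13, adjusted p = 2.27e-07). In EtOH_TRAP it was at 8.88, 3.95, 4.77 and 9.18 CPM and in EtOH_total-RNA at 46.9, 51.5, 65.2 and 36.8 CPM, 7.66-fold lower (adjusted p = 1.71e-05). In EtOH + ABT-888 the values were 10.3, 4.50, 4.22 and 6.54 CPM in TRAP and 71.0, 48.4, 55.2 and 54.4 CPM in total-RNA, 8.90-fold lower (adjusted p = 1.40e-05). The TRAP and total-RNA values of Neurod6 did not overlap in any treatment. Tbr1 was at 69.2, 61.0 and 101.0 CPM in Control_TRAP and at 175.7, 173.5 and 173.4 CPM in Control_total-RNA, with a log2 fold change of -1.19 (SE 0.16, adjusted p = 5.90e-05). Its log2 fold change was -2.27 in EtOH and -2.20 in EtOH + ABT-888, both past the test.

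The upper-layer markers differed in how firmly they fell. Rorb was at 65.6, 34.0 and 50.8 CPM in Control_TRAP and at 186.8, 173.8 and 167.9 CPM in Control_total-RNA, and its log2 fold change was -1.84 (SE 0.19, adjusted p = 8.38e-06) in Control, -2.41 in EtOH and -2.57 in EtOH + ABT-888. Without the EtOH_TRAP library of mouse 9 the EtOH value was -3.38 (SE 0.33). Cux2 was the marker with the smallest drop. It averaged 55.8 ± 4.99 CPM (SD, n = 3) in TRAP and 109 ± 17.6 CPM in total-RNA of Control mice (log2 fold change -0.98, SE 0.13, adjusted p = 5.55e-05), and its log2 fold change in EtOH + ABT-888 was -1.48 (adjusted p = 0.0012). In EtOH the Cux2 libraries overlapped, at 90.7, 52.1, 23.9 and 75.4 CPM in TRAP and 91.1, 91.0, 84.3 and 92.0 CPM in total-RNA, and the difference did not pass the test (log2 fold change -0.59, SE 0.30, adjusted p = 0.12). With the mouse as a block it passed (log2 fold change -0.73, adjusted p = 0.029), as it did without the EtOH_TRAP library of mouse 2 (-0.84, adjusted p = 0.031).

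The deep-layer markers did not move together. Fezf2, which directs subcortically projecting neurons of layer 5, was at 6.30, 3.99 and 9.21 CPM in Control_TRAP and at 36.6, 30.2 and 28.4 CPM in Control_total-RNA, 4.92-fold lower (log2 fold change -2.30, SE 0.24, adjusted p = 1.18e-05). Bcl11b, a zinc finger factor that in cortex acts in the same layer 5 neurons, went the other way: it was at 517, 785 and 486 CPM in Control_TRAP and at 125, 171 and 146 CPM in Control_total-RNA, 4.00-fold higher (log2 fold change 2.00, SE 0.18, adjusted p = 3.02e-06). It was at 596, 602, 537 and 471 CPM in EtOH_TRAP against 158, 212, 158 and 198 CPM in EtOH_total-RNA, and at 709, 644, 510 and 465 CPM against 168, 143, 138 and 150 CPM in EtOH + ABT-888. Every TRAP library of Bcl11b lay above every total-RNA library, and its log2 fold change was 1.58 (SE 0.14) in EtOH and 1.96 (SE 0.16) in EtOH + ABT-888. Foxp2, a forkhead factor of layer 6 corticothalamic neurons, was at 107.7, 107.8 and 108.1 CPM in Control_TRAP and at 47.7, 52.9 and 54.9 CPM in Control_total-RNA (log2 fold change 1.04, SE 0.09, adjusted p = 2.70e-06). Its log2 fold change was 1.09 (SE 0.18) in EtOH and 1.59 (SE 0.15) in EtOH + ABT-888, both past the test. Fezf2 had a log2 fold change of -2.49 in EtOH and -2.54 in EtOH + ABT-888.

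**Figure D2:**
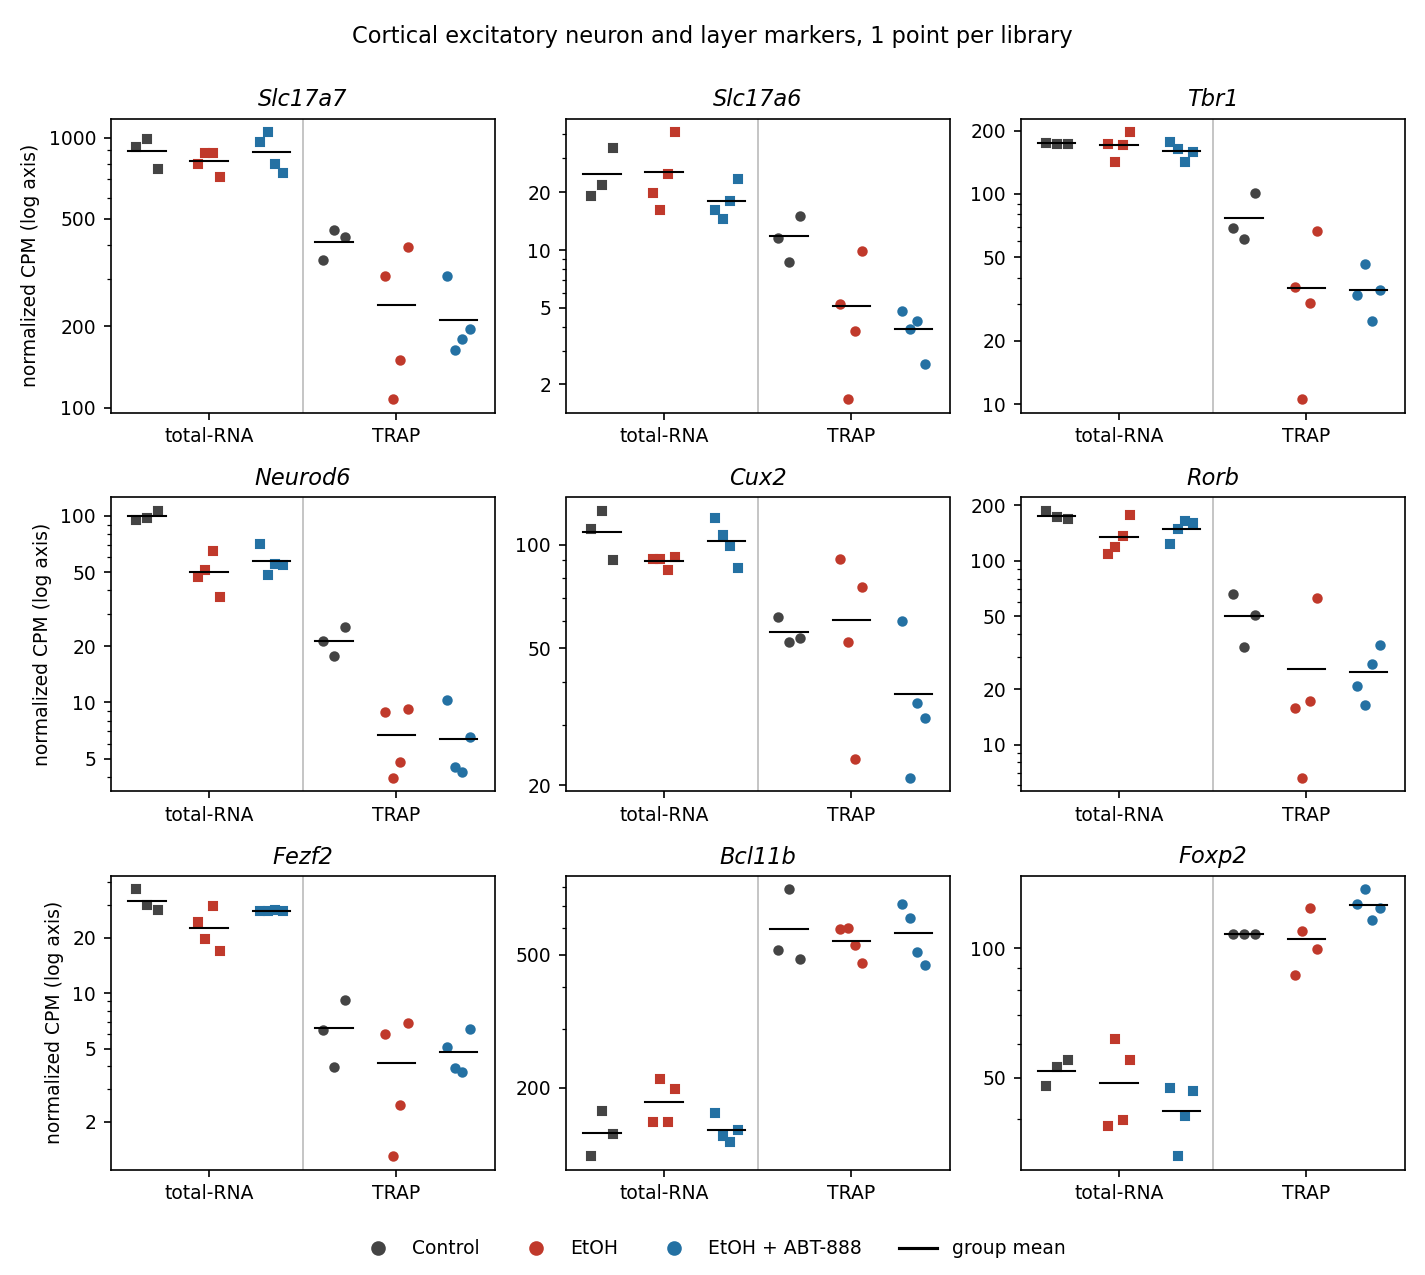
Each panel plots 1 marker, with the normalized CPM of each library on a log axis (y axis) and the total-RNA and TRAP libraries on the left and right (x axis), squares for total-RNA and circles for TRAP, coloured by treatment, with group means as bars. Bcl11b and Foxp2 are the panels in which TRAP lies above total-RNA, and Neurod6 is the panel in which the treated libraries lie below Control on both sides.

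Ordered by the mean log2 ratio over the 11 mice, the markers were Neurod6 (-2.87 ± 0.70, SD), Fezf2 (-2.57 ± 0.79), Rorb (-2.50 ± 0.79), Tbr1 (-2.06 ± 0.79), Slc17a6 (-2.01 ± 0.80), Slc17a7 (-1.78 ± 0.75), Cux2 (-1.10 ± 0.67), Foxp2 (1.28 ± 0.37) and Bcl11b (1.83 ± 0.29). The ranges over mice of neighbours in this order overlapped, except for the step from Cux2, with a highest value of -0.01, to Foxp2, with a lowest of 0.83. The order pools the treatments and differed between them: in Control, Fezf2 (mean log2 ratio -2.36) stood below Neurod6 (-2.23), and Slc17a7 (-1.11) below Slc17a6 (-1.08), and in EtOH Rorb (-2.85) stood below Fezf2 (-2.71), as it did in EtOH + ABT-888 (-2.63 and -2.59). Within mice, the order of some neighbours did not hold: Fezf2 was lower than Rorb in 4 of 11 mice, and Tbr1 was lower than Slc17a6 in 6 of 11. Neurod6 was lower than Fezf2 in 8 of 11 and Slc17a6 lower than Slc17a7 in 8 of 11, while Rorb was lower than Tbr1 in 10 of 11 and Slc17a7 lower than Cux2 in 10 of 11. Cux2 was lower than Foxp2, and Foxp2 lower than Bcl11b, in 11 of 11 mice.

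Genes can be compared with each other only per length, so levels were divided by the exon length of each gene. This length joins the exons of all annotated transcripts, 16346 bp over 20 transcripts for Foxp2 and 2150 bp over 1 for Neurod6. It can exceed the length of the transcripts present, so the order below depends in part on the annotation. In Control_total-RNA, Slc17a7 stood first at 165 ± 21.3 CPM per kb (SD, n = 3), followed by Neurod6 at 46.4 ± 2.73, Tbr1 at 31.8 ± 0.24 and Bcl11b at 18.1 ± 2.83, with Foxp2 last at 3.17 ± 0.23. In this group the ranges of Bcl11b and Rorb (15.9 ± 0.88 CPM per kb) overlapped, as did those of Cux2 (10.8 ± 1.75) and Fezf2 (10.4 ± 1.41), and the other neighbours were separate. In Control_TRAP, Slc17a7 at 76.4 ± 9.88 and Bcl11b at 73.5 ± 20.3 CPM per kb overlapped at the top, while Neurod6 stood at 9.98 ± 1.79 and Slc17a6 and Fezf2 were last at 2.18 ± 0.60 and 2.13 ± 0.86. In EtOH_TRAP and EtOH + ABT-888_TRAP, Bcl11b came first, at means of 68.0 and 71.8 CPM per kb (ranges 58.1 to 74.3 and 57.4 to 87.4, n = 4 each). It overlapped with Slc17a7 (44.4 ± 24.8) in EtOH_TRAP and not in EtOH + ABT-888_TRAP, where Slc17a7 was at 39.3 ± 12.2.

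The labelled cell population was checked against marker lists of cortical and other cell types. Other pan-excitatory genes went in both directions: in Control, 8 of 12 were lower in TRAP and 2 higher, with a median log2 fold change of -0.94. Among them were Mef2c, an activity-regulated transcription factor (-1.43, SE 0.11), the synaptic vesicle protein Sv2b (-1.02, SE 0.08) and the cAMP-regulated phosphoprotein Arpp21 (1.77, SE 0.12), the latter higher in TRAP. Camk2a, whose promoter drives the transactivator, was at 1883 ± 149 CPM in Control_TRAP and 2092 ± 244 CPM in Control_total-RNA, and the difference did not pass the test (log2 fold change -0.17, SE 0.11, adjusted p = 0.20). Further upper-layer genes were lower for 9 and higher for 3 of 16, further layer 5 genes lower for 9 and higher for 3 of the 13 tested, and further layer 6 and 6b genes lower for 11 and higher for 4 of 16. Layer 5 and layer 6 genes that were higher included Pcp4 (2.12, SE 0.14) and Syt6 (2.17, SE 0.12), and lower ones included Sulf2 (-2.55, SE 0.15), Lpar1 (-3.21, SE 0.21) and Ccn2 (-3.21, SE 0.22). Nectin3 and Lhx2 of the upper-layer list were lower by log2 fold changes of -1.73 and -1.93.

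Markers of striatal projection neurons were higher in TRAP, 15 of 15 in each of the 3 treatments, with a median log2 fold change of 2.90 in Control, 2.66 in EtOH and 2.89 in EtOH + ABT-888. Drd2 and Drd1, the dopamine receptors of the indirect and direct pathways, had a mean log2 ratio over the 11 mice of 3.40 ± 0.34 and 2.52 ± 0.31 (SD), and Ppp1r1b, which encodes DARPP-32, one of 2.99 ± 0.16. In Control, Penk, Gpr6 and Tac1 had log2 fold changes of 3.21 (SE 0.10), 3.01 (SE 0.10) and 2.95 (SE 0.10). The summed level of the 15 genes lay between 10849 and 15046 CPM over the TRAP libraries and between 1255 and 2494 CPM over the total-RNA libraries, and none of the 15 was at 0 in any library. The summed level of the 9 markers lay between 893 and 1526 CPM in TRAP and between 1449 and 1831 CPM in total-RNA. The summed levels of other cortical lists did not all run that way. In Control, the 12 other pan-excitatory genes summed to 7358 to 9231 CPM in TRAP and 6445 to 7277 CPM in total-RNA, the 16 further layer 5 genes to 1113 to 1497 and 819 to 936 CPM, and the 16 further layer 6 and 6b genes to 628 to 687 and 552 to 613 CPM. The 16 further upper-layer genes summed to 993 to 1033 CPM in TRAP and 1174 to 1196 CPM in total-RNA. A sum is set by its most abundant genes, whereas the counts above weigh each gene alike. Since the striatal genes were higher in TRAP, "cortical excitatory" is used here for the gene list and not for the TRAP libraries. The part of striatal RNA in the marker differences was not tested, and in bulk RNA fewer cells of a type and less RNA per cell cannot be told apart.

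Interneuron genes were split, with 7 of the 14 tested lower and 4 higher in Control_TRAP, among the latter the GABA transporter Slc32a1 (2.52, SE 0.11), Reln (1.62, SE 0.10) and Gad1 (1.24, SE 0.08), of which Slc32a1 and Gad1 are also used by striatal projection neurons. Glial and vascular genes were lower in TRAP: 8 of 8 astrocyte, oligodendrocyte, microglia and endothelial or pericyte genes each in Control and EtOH, and 8, 8, 7 and 7 of 8 in EtOH + ABT-888. Their median log2 fold changes in Control were -3.11, -2.80, -3.36 and -3.23, below the median of the 9 markers. The summed astrocyte level was 290 to 1230 CPM in TRAP and 6571 to 8482 CPM in total-RNA. Genes at 0 in at least 1 TRAP library were microglial Cx3cr1 and Aif1, vascular Kdr and Kcnj8, Qrfpr, Stac and Chrna6 of the layer 5 list, and Zic4, Gbx2 and Shox2 of the thalamic and subcortical list. Of the genes of thalamus and other subcortical glutamatergic neurons, 5 of the 11 tested were lower and 2 higher in Control.

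**Figure D3:**
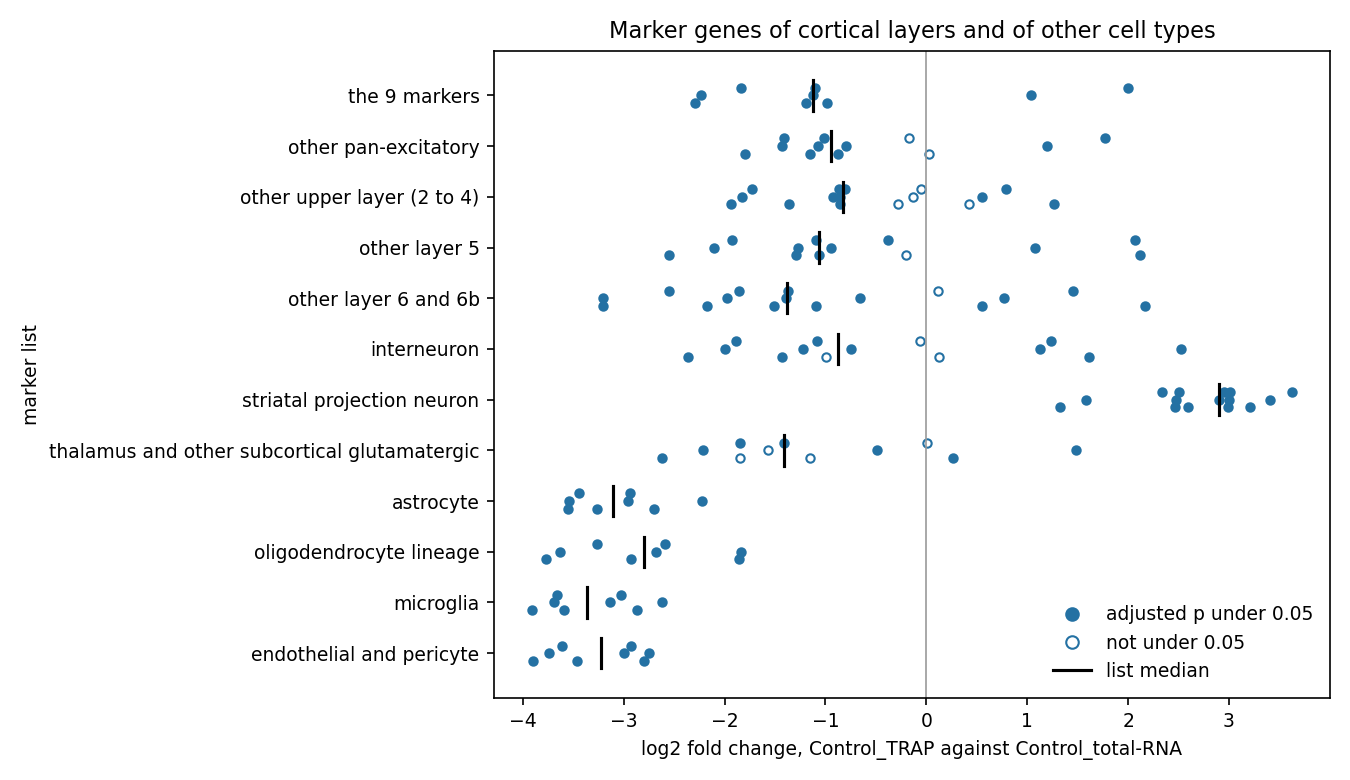
Each point is 1 gene, placed by its log2 fold change in Control_TRAP against Control_total-RNA (x axis) in the row of its marker list (y axis), filled where the adjusted p is under 0.05, with the list median as a bar. The striatal list stands to the right, with a median of 2.90, the glial and vascular lists to the left, and the cortical lists spread over both sides of 0 with medians between -1.38 and -0.83.

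Within EtOH_TRAP the markers other than Bcl11b and Foxp2 varied more between mice, relative to their means, than in EtOH_total-RNA. For 6 of the 9 markers (Slc17a7, Slc17a6, Tbr1, Neurod6, Fezf2 and Cux2) mice 5 and 8 both lay below mice 2 and 9. Rorb was at 15.8, 6.59, 17.2 and 62.8 CPM in mice 2, 5, 8 and 9, and Slc17a6 at 5.24, 1.67, 3.78 and 9.86 CPM. The summed striatal level was 14253 and 14614 CPM in mice 5 and 8 and 12545 and 10849 CPM in mice 2 and 9. The libraries of mice 5 and 8 held 22002618 and 21892234 counted reads and those of mice 2 and 9 held 13822758 and 14758420. Summed astrocyte levels were 290 and 651 CPM in mice 5 and 8 and 1060 and 631 CPM in mice 2 and 9. The part of these differences in the spread of the markers was not tested. Over all 11 TRAP libraries the highest level was 9.96 times the lowest for Rorb and 9.59 times for Tbr1, but 1.69 times for Bcl11b and 1.58 times for Foxp2. The lowest library of Rorb and Tbr1 was that of mouse 5, at 6.59 and 10.5 CPM. The next lowest were 15.8 CPM for Rorb (mouse 2) and 24.9 CPM for Tbr1 (mouse 10). In total-RNA the corresponding ratios were 1.72, 1.38, 1.70 and 1.87.

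The next comparison asks which markers ethanol changed in the ribosome-bound RNA. Neurod6 was the 1 marker of 9 called in EtOH_TRAP against Control_TRAP, where 2.47% of all genes were called lower. It fell from 21.5 ± 3.85 CPM (SD, n = 3) to 6.69 ± 2.72 CPM (n = 4), 3.20-fold lower (log2 fold change -1.68, SE 0.30, adjusted p = 0.012). The 4 EtOH values, given above, lay below the 3 Control values, and Neurod6 was the 1 marker of 9 whose ranges did not overlap, beside 11.9% of all genes that were lower without overlap. The call was lost without the Control_TRAP library of mouse 1 or of mouse 7 (highest adjusted p = 0.070). The other markers did not pass: Slc17a6 had a log2 fold change of -1.20 (SE 0.45, adjusted p = 0.14), Tbr1 of -1.10 (SE 0.41, adjusted p = 0.14), Rorb of -0.96 (SE 0.54, adjusted p = 0.31), Slc17a7 of -0.77 (SE 0.34, adjusted p = 0.19) and Fezf2 of -0.66 (SE 0.50, adjusted p = 0.46). Slc17a7, Slc17a6, Tbr1 and Rorb passed when the EtOH_TRAP library of mouse 9 was left out, in which 5 markers were called and the log2 fold change of Rorb was -1.92 (SE 0.33, adjusted p = 0.0062), and when no filter on low counts was used. Without the library of mouse 9, 1550 of all genes were called, against 737 with it. Cux2, Bcl11b and Foxp2 had log2 fold changes of 0.13, -0.09 and -0.02.

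Both treatments were compared with the same Control libraries, so the comparisons are not independent. With ABT-888 added, Neurod6 was again the 1 marker called against Control_TRAP, where 0.291% of all genes were called lower. It was at 6.40 ± 2.82 CPM (n = 4), 3.32-fold lower than Control (log2 fold change -1.73, SE 0.31, adjusted p = 0.035). Slc17a6 was at 4.84, 3.90, 4.27 and 2.55 CPM against 11.5, 8.70 and 15.1 CPM in Control_TRAP, with a log2 fold change of -1.59 (SE 0.32, adjusted p = 0.060). Tbr1 was at 33.0, 46.5, 24.9 and 35.0 CPM (log2 fold change -1.14, SE 0.24, adjusted p = 0.067), and Slc17a7 had a log2 fold change of -0.95 (SE 0.20, adjusted p = 0.071). Slc17a7, Slc17a6, Tbr1 and Neurod6 lay below Control without overlap, 4 of 9 markers beside 7.75% of all genes. The count depended on the test: with exactTest, with DESeq2 and with no filter on low counts 5 markers were called lower (these 4 and Rorb). Over all genes the quasi-likelihood test called 67 and the other settings 66 to 454, the most with no filter. Between 0 and 5 markers were called when 1 library was left out. Without the EtOH + ABT-888_TRAP library of mouse 3, 5 were called (Slc17a7, Slc17a6, Tbr1, Neurod6 and Cux2), beside 373 of all genes. Without that of mouse 10, 4 were called. Rorb passed in none of the fits with 1 library left out. The Neurod6 call was lost in 5 of those 7 fits (highest adjusted p = 0.24), namely without the Control_TRAP library of mouse 1, 4 or 7 or the EtOH + ABT-888_TRAP library of mouse 6 or 11. Foxp2, at 126.5, 137.0, 116.5 and 124.2 CPM, lay above the 3 Control values, but its log2 fold change of 0.24 (SE 0.15) did not pass (adjusted p = 0.54). The share of all genes that lay above Control without overlap was not computed.

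**Figure D4:**
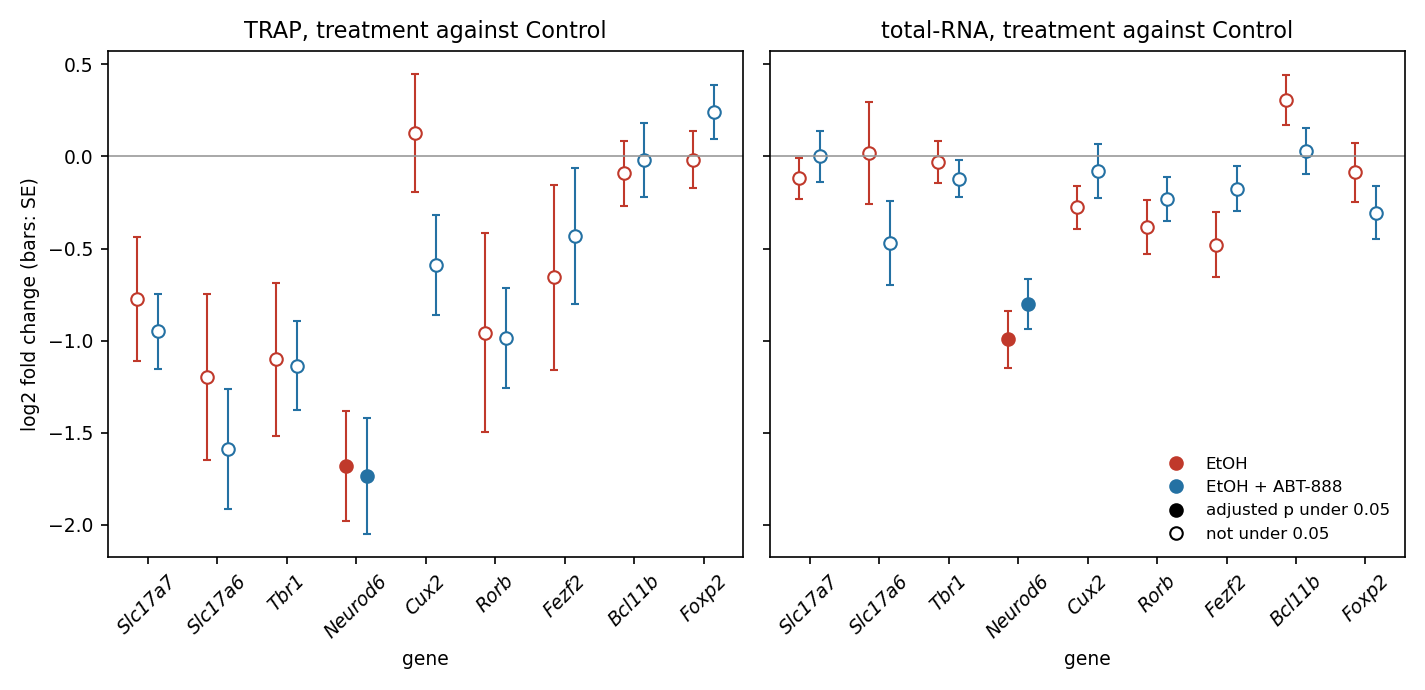
The log2 fold change of each marker against Control (y axis, bars are SE) is plotted for EtOH and EtOH + ABT-888 in TRAP (left) and total-RNA (right), with filled points where the adjusted p is under 0.05. Neurod6 has the 4 filled points, at -1.68 and -1.73 in TRAP and at -0.99 and -0.80 in total-RNA.

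The same comparisons in total-RNA gave Neurod6 alone as well. In EtOH it fell from 99.8 ± 5.87 CPM (SD, n = 3) to 50.1 ± 11.8 CPM (n = 4), 1.99-fold lower (log2 fold change -0.99, SE 0.15, adjusted p = 0.0016), beside 8.60% of all genes called lower. The EtOH and Control values did not overlap, as for 15.8% of all genes that were lower. This call held in 7 of 7 fits with 1 library left out, with a highest adjusted p of 0.012. It was lost in the single fit over all 22 libraries (adjusted p = 0.070). In EtOH + ABT-888_total-RNA Neurod6 was at 57.2 ± 9.68 CPM (n = 4; log2 fold change -0.80, SE 0.14, adjusted p = 0.047), beside 0.0853% of all genes called lower. That call was lost in 5 of 7 fits with 1 library left out (highest adjusted p = 0.28), without the Control_total-RNA library of mouse 1, 4 or 7 or the EtOH + ABT-888_total-RNA library of mouse 6 or 11, and in the single fit over all libraries (adjusted p = 0.35). Neurod6, Rorb, Fezf2 and Foxp2 lay below Control without overlap in EtOH + ABT-888_total-RNA, 4 of 9 markers beside 8.62% of all genes. In the total-RNA of EtOH mice the vesicular transporter Slc17a7 had a log2 fold change of -0.12 (SE 0.11) and Slc17a6 one of 0.02 (SE 0.28), neither past the test. Fezf2 (-0.48, SE 0.18, adjusted p = 0.075) and Rorb (-0.38, SE 0.15, adjusted p = 0.086) did not pass, and Bcl11b had a log2 fold change of 0.31 (SE 0.14, adjusted p = 0.13). Fezf2 passed with exactTest, with DESeq2 and without the EtOH_total-RNA library of mouse 8 (2 markers called in each), and Rorb passed without that of mouse 9 (2 called). Without the library of mouse 9, 3616 of all genes were called, against 2482 with it.

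Other cortical genes were called in small numbers after treatment. The shares of all genes called higher, to set beside the higher calls of the lists, were 2.77% in EtOH_TRAP, 0.185% in EtOH + ABT-888_TRAP, 9.04% in EtOH_total-RNA and 0.178% in EtOH + ABT-888_total-RNA. In EtOH_total-RNA, 5 of 16 further upper-layer genes were lower, with Nectin3, a cell adhesion molecule, at a log2 fold change of -0.92 (SE 0.12, adjusted p = 0.00061), and 4 of 16 layer 6 and 6b genes were lower, among them Sox5 (-0.73, SE 0.14). Of further layer 5 genes 3 of 13 were lower and 2 higher, and of further pan-excitatory genes 2 of 12 were lower, among them Nrgn (-0.58, SE 0.14), and 2 higher, of which Neurod2, a relative of Neurod6, had a log2 fold change of 0.66 (SE 0.11, adjusted p = 0.0023). The median log2 fold changes of these lists lay between -0.23 and -0.07, beside 0.00 over all genes. In EtOH_TRAP 1 upper-layer gene, Nectin3 (-1.38, SE 0.32), and 1 layer 6 gene, Hs3st4 (-0.64, SE 0.16), were lower and 1 layer 5 gene, Crym, which encodes a thyroid hormone binding protein, was higher (2.31, SE 0.32). The median log2 fold changes of the 4 cortical lists there lay between -0.53 and -0.15, beside 0.02 over all genes. exactTest and DESeq2 each called 4 of 16 upper-layer, 3 of 13 layer 5, 1 of 16 layer 6 and 6b and 2 of 12 pan-excitatory genes, against 1, 1, 1 and 0 with edgeR's quasi-likelihood test (6, 3, 4 and 5 at an unadjusted p under 0.05). Of all 14072 genes, DESeq2 called 1523 and the quasi-likelihood test 737, with 3249 at an unadjusted p under 0.05. In EtOH + ABT-888_TRAP 1 of 12 pan-excitatory genes was lower and 1 of 13 layer 5 genes, Crym, was higher (1.63, SE 0.24), with medians of the 4 lists between -0.41 and -0.11, beside 0.02 over all genes. There exactTest called 2 and DESeq2 3 pan-excitatory genes, 1 and 2 upper-layer genes, 1 each of layer 5 and 1 each of layer 6 and 6b. Over all genes the quasi-likelihood test called 67 and the other settings 66 to 454. In EtOH + ABT-888_total-RNA Nectin3 was lower (-0.84, SE 0.11). In that comparison exactTest and DESeq2 each called 2 pan-excitatory, 2 upper-layer, 1 layer 5 and 0 layer 6 and 6b genes, against 0, 1, 0 and 0 with the quasi-likelihood test (5, 3, 5 and 3 at an unadjusted p under 0.05). Of all 14072 genes, DESeq2 called 621 and the quasi-likelihood test 37, with 2243 at an unadjusted p under 0.05.

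Markers of other cell types were set beside these changes. In EtOH_total-RNA 6 of 8 microglia genes were lower, with a summed level of 149 to 232 CPM against 363 to 372 CPM in Control, and 4 of 15 striatal genes were higher (9.04% of all genes), among them Ppp1r1b (0.67, SE 0.15), with a summed level of 1721 to 2494 CPM against 1525 to 1780 CPM. In EtOH_TRAP 1 of 15 striatal genes, Drd2, was called, and it was lower (-0.56, SE 0.14), with a summed striatal level of 10849 to 14614 CPM against 10969 to 12984 CPM in Control_TRAP. In EtOH + ABT-888_TRAP the 8 oligodendrocyte genes had a median log2 fold change of 0.79 and the 8 endothelial or pericyte genes one of 0.82, with 8 of 8 positive in each list. Their summed levels were 326 to 1470 CPM against 344 to 452 CPM in Control_TRAP, and 16.2 to 40.0 CPM against 11.5 to 23.6 CPM. The oligodendrocyte sum of 1470 CPM was that of mouse 11, and the next highest was 877 CPM in mouse 3. With edgeR's quasi-likelihood test 0 of 8 were called in either list (2 and 1 at an unadjusted p under 0.05), exactTest called 1 and 0, and DESeq2 called 1 in each. Of all 14072 genes, 1696 had an unadjusted p under 0.05 in the quasi-likelihood test. In EtOH + ABT-888_total-RNA the summed microglia level was 155 to 299 CPM and the summed striatal level 1255 to 1754 CPM. Their part in the change of Neurod6 was not tested.

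None of the 9 markers passed the test between EtOH + ABT-888 and EtOH. In TRAP 0% of all genes were called and 0 of the 9 markers had an unadjusted p under 0.05, and in total-RNA 0% of all genes were called and 1 marker, Bcl11b, had an unadjusted p under 0.05. Of all 14072 genes, 136 in TRAP and 269 in total-RNA had an unadjusted p under 0.05. exactTest and DESeq2 called none of the 9 either. For Neurod6 the log2 fold change of EtOH + ABT-888 against EtOH was -0.06 (SE 0.38) in TRAP and 0.19 (SE 0.18) in total-RNA. The other TRAP values ran from -0.72 (SE 0.36) for Cux2 to 0.26 (SE 0.17) for Foxp2. They depended on single libraries. With 1 library left out, Rorb ran from -0.35 to 0.93, Fezf2 from -0.08 to 0.59 and Tbr1 from -0.34 to 0.46, none called. With SEs of this size a missed test does not show equal levels.

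Whether ethanol changed the markers differently in the 2 RNA pools was tested as the interaction of treatment with sample type over all 22 libraries. For EtOH 0.0213% of all genes were called and none of the 9 markers, of which 2, Slc17a6 (-1.24, SE 0.56) and Tbr1 (-1.08, SE 0.47), had an unadjusted p under 0.05. For EtOH + ABT-888 0% of all genes and none of the markers were called, and 4 markers, Slc17a7 (-0.96, SE 0.42), Tbr1 (-1.03, SE 0.47), Neurod6 (-0.94, SE 0.40) and Foxp2 (0.53, SE 0.23), had an unadjusted p under 0.05. Of all 14072 genes, 685 had an unadjusted p under 0.05 in the EtOH interaction and 476 in that of EtOH + ABT-888. The likelihood ratio test called none of the 9 in either interaction. The fall of Neurod6 is thus not shown to differ between TRAP and total-RNA, with an interaction of -0.70 (SE 0.39, adjusted p = 0.9998) for EtOH.

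The genes closest to each marker were found over the 22 libraries by the root mean square distance of their log2 CPM, each centred on its own mean. Slc17a7 was closest to Syt13, a synaptotagmin, at a distance of 0.13, and to Slc30a3, a vesicular zinc transporter, at 0.21. Neurod6 was closest to C1ql3 at 0.30 and Psd2 at 0.36, Tbr1 to Elavl4 at 0.21 and Ipcef1 at 0.26, and Slc17a6 to Nr4a2 at 0.37 and, as the second, to Tbr1 at 0.38. Rorb was closest to Zeb2 and Sox5, both at 0.28 to 0.29, Fezf2 to Hivep1 at 0.27 and Dkk3 at 0.30, and Cux2 to Faah at 0.28 and Ssh3 at 0.31. Bcl11b was closest to Bcr at 0.17 and Sertad4 at 0.18, and Foxp2 to Slmap at 0.18 and Myt1l at 0.19. The root mean square of each marker around its own mean ran from 0.68 for Foxp2 to 1.61 for Neurod6, and much of it is the difference between TRAP and total-RNA that these genes share.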

How the data were processed

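RNA of the PFC of 11 mice was measured as 11 TRAP and 11 total-RNA libraries. After ribosomal RNA depletion and paired-end sequencing, the authors aligned reads to mm10 with STAR and deposited whole, unnormalized counts per gene from featureCounts; versions and the strand setting are not given in the sources used here. Of the 39056 genes, 38872 were named and measured for exon length with GENCODE release 21. The tests were run with edgeR 4.0.16 in R 4.3.3 (TMM, glmQLFit and glmQLFTest, Benjamini-Hochberg) on the groups compared, after the study's filter, which kept 14072 genes. Interactions used all 22 libraries. Normalized CPM are shown, with a prior count of 1 for log2 CPM. Library depth was 6570957 to 32421392 reads. Same-numbered libraries were taken as 1 mouse by the order of listing. Their deviations from the group means correlated at 0.10 to 0.62 in the 11 pairs, and mismatched pairs were not computed for comparison. The quasi-likelihood fits were tested on simulated independent libraries with 1 fixed dispersion, in which only well-counted genes were changed. This does not cover the spread or the low counts of the TRAP libraries. exactTest, DESeq2 and the likelihood ratio test were not simulated. The alternatives were exactTest, DESeq2 1.42.0, RLE factors, no filter, filterByExpr, a single fit over all libraries, the mouse as a block, the likelihood ratio test and leaving out each library. Genes that are not among the 9 markers are named by a rule: up to 3 per list and comparison with the smallest p among those called, and the 2 protein-coding genes closest to each marker, except for 1 gene that is not reported here; Camk2a is named as the gene of the driving promoter, and Drd1, Drd2, Ppp1r1b and the genes at 0 were singled out after values were seen. The markers and lists were chosen with earlier results of these data known.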

Additional observations from a re-analysis of the deposited data

Results flagged for a closer look

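In groups of 4 libraries, the highest and lowest level of each marker was compared with its neighbour, in 36 groups in all, and 1 stood apart: Cux2 in EtOH_total-RNA was lowest in mouse 8, at 84.3 CPM, with the other libraries between 91.0 and 92.0 CPM. Chance gives such a library in about 1 of 20 groups.

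Foxp2 differed in direction between the RNA pools in EtOH + ABT-888: each of the 4 TRAP libraries lay above the Control_TRAP mean and each of the 4 total-RNA libraries below the Control_total-RNA mean. The interaction of treatment with sample type was 0.53 on the log2 scale (SE 0.23) and did not pass the test (adjusted p = 0.9999). The share of all genes with such a pattern was not computed.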

How the results depend on the processing

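The TRAP against total-RNA results kept their direction for all 9 markers under every alternative run, and the calls changed for Cux2 in EtOH alone. Without 1 library, 9 to 9 markers were called in Control, 8 to 9 in EtOH and 9 to 9 in EtOH + ABT-888. The replicate block, with the mouse as the block, called 9 in each treatment and 0 in either interaction, and changed no other call. Calls against Control were less firm. In EtOH_TRAP 1 marker was called, but 5 with no filter on low counts, 2 in the single fit over all libraries and 0 to 5 without 1 library. In EtOH + ABT-888_TRAP 1 was called, but 5 with exactTest, DESeq2 or no filter, 2 in the single fit and 0 to 5 without 1 library. In EtOH_total-RNA 1 was called, but 2 with exactTest or DESeq2, 3 with no filter, 0 in the single fit and 1 to 2 without 1 library. In EtOH + ABT-888_total-RNA 1 was called, but 0 in the single fit and 0 to 1 without 1 library. No alternative called a marker between EtOH + ABT-888 and EtOH or in an interaction (0 to 0 without 1 library). The causes were not tested. Of 1593 alternative values of single markers, 1541 kept their side of the threshold, 38 passed it and 14 lost it; 43 changes of sign occurred where neither value was called. Calls over all genes also moved: 737 in EtOH_TRAP (712 with filterByExpr to 1523 with DESeq2; 84 to 1550 without 1 library), 67 in EtOH + ABT-888_TRAP (66 to 454; 0 to 373), 2482 in EtOH_total-RNA (151 to 3436; 878 to 3616), 37 in EtOH + ABT-888_total-RNA (32 to 621; 0 to 870), 3 in the EtOH interaction (3 to 16; 1 to 6) and 0 in the EtOH + ABT-888 interaction (0 to 6; 0 to 1). The use of no filter also shifted the median log2 fold change of all genes in TRAP against total-RNA, from 0.02 to -0.16 in Control, 0.03 to -0.19 in EtOH and 0.05 to -0.18 in EtOH + ABT-888. Depth limits Slc17a6, Fezf2 and Neurod6 in TRAP, with as few as 26, 26 and 30 counts in a library.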

Other observations

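Cck, a peptide gene of interneurons that cortical pyramidal cells also express, was lower after treatment in 3 comparisons with Control: its log2 fold change was -1.42 (SE 0.34, adjusted p = 0.035) in EtOH_TRAP, -1.43 (SE 0.22, adjusted p = 0.026) in EtOH + ABT-888_TRAP and -0.88 (SE 0.19, adjusted p = 0.0098) in EtOH_total-RNA. Crym was the 1 gene of the lists called in the interaction of EtOH with sample type (2.06, SE 0.35, adjusted p = 0.028). In EtOH_total-RNA the microglial genes with the smallest p were Cx3cr1 (-2.47, SE 0.26), Tmem119 (-1.53, SE 0.18) and P2ry12 (-2.35, SE 0.28), and P2ry12 was also lower in EtOH_TRAP (-3.46, SE 0.61). Microglial RNA was scarce in TRAP: the 8 genes together summed to 12.4 to 57.5 CPM in EtOH_TRAP and 24.1 to 45.7 CPM in Control_TRAP. These comparisons share their Control libraries within a sample type.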
